A study of Mus musculus with 2 samples.

Results

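The cells described here are the phagocytes of the CP+EVs library in which Retnla and Lyz1 together make up at least 2% of the unique molecular identifiers (UMIs, the tags that count captured RNA molecules). They number 142 of the 8845 CP+EVs cell barcodes and of the 22352 barcodes of the whole series. They were selected on measured UMIs: at least 1000 UMIs in all, at most 25% from mitochondrial genes, C1qa, C1qb and C1qc together under 0.3%, and at least 3 UMIs of Csf1r, Lyz2, Fcrls and Ccr2. They also held at most 1 UMI of Cd79a and at most 1 of Cd3e, and under 1% from Col1a1, Col1a2 and Col3a1. The levels of these genes in the cells were therefore fixed by the choice and are given as a description. Retnla and Lyz1 alone kept 211 of the 6849 CP+EVs cells with enough UMIs, the C1q limit left 157, the Cd79a limit 156 and the Cd3e limit 142; the other limits removed no further cell. The cells were 2.07% of those 6849 cells, with an exact Clopper-Pearson 95% interval of 1.75% to 2.44% that covers counting error only. Their median was 8154.5 UMIs and 2586 genes, against a median of 3851 UMIs over the 6849 cells.

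Retnla encodes RELMα (FIZZ1), a small secreted resistin-like protein that interleukin-4 and interleukin-13 induce in macrophages through STAT6 and that is a standard marker of alternative activation. Lyz1 and Lyz2 encode the mouse lysozymes, enzymes that cut bacterial cell walls; Lyz2 is the form of most myeloid cells and Lyz1 is best known from Paneth cells of the gut. Among macrophages of serous cavities, a small, monocyte-derived kind rich in MHC class II is known for Retnla, Cd226, Irf4 and Ccr2, and a large kind for Gata6, Icam2 and Timd4.

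The series holds 2 libraries of mouse pancreas, dissociated to single cells and captured on the BD Rhapsody system. CP came from Cae-treated animals and CP+EVs from animals given Cae and EVs, so that both groups share the Cae treatment. The series title speaks of chronic pancreatitis, exercise-induced extracellular vesicles and STING-interferon signalling, but both libraries carry acute pancreatitis as their condition label. Strain, age and sex of the animals, their number, and an untreated group are given in no source used here. With 1 library per group and cells that are not replicates, no difference below has a test, a standard error or a p-value. Intervals are exact 95% Poisson or conditional intervals on summed UMIs and cover counting error only.

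CP held 51652425 UMIs in 13507 barcodes and CP+EVs 38532775 in 8845; the barcodes' medians were 1417 and 2884 UMIs. In CP, 8426 cells passed the UMI and mitochondrial limits, with a median of 2652.5 UMIs. The libraries shared 118 barcode sequences, and 1 of the 142 cells carried such a barcode. RNA of acinar cells stood apart between the libraries: acinar enzyme and Reg genes took a median of 2.46% of UMIs in the 142 cells and 3.05% in the C1q-rich macrophages of CP+EVs, but 0.0104% in those of CP. Of the 142 cells, 26 held over 5% of such UMIs, 3 held more than 1 B cell UMI, 4 more than 1 T cell UMI and 1 more than 1 Nkg7 UMI, so that 33 carried at least 1 of these signs. No doublet caller was used.

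The same rule found 4 of 8426 cells in CP, or 0.0475% (0.0129% to 0.122%). Lyz1 was at 0 UMIs in all 4. One of them held 27403 UMIs, with 574 of Retnla, 22 of Fcrls, 17 of Ear2, 19 of Cd226 and 118 of H2-Eb1. The others held 1389, 1101 and 2140 UMIs, with 30, 29 and 56 of Retnla, 9, 13 and 22 of Ccl6, and none of Fcrls, Ear2, Cd226 or H2-Eb1. Since each library is 1 preparation, treatment, library and cell mixture cannot be told apart in this contrast, nor can fewer such cells and less Retnla RNA per cell.

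**Figure D1:**
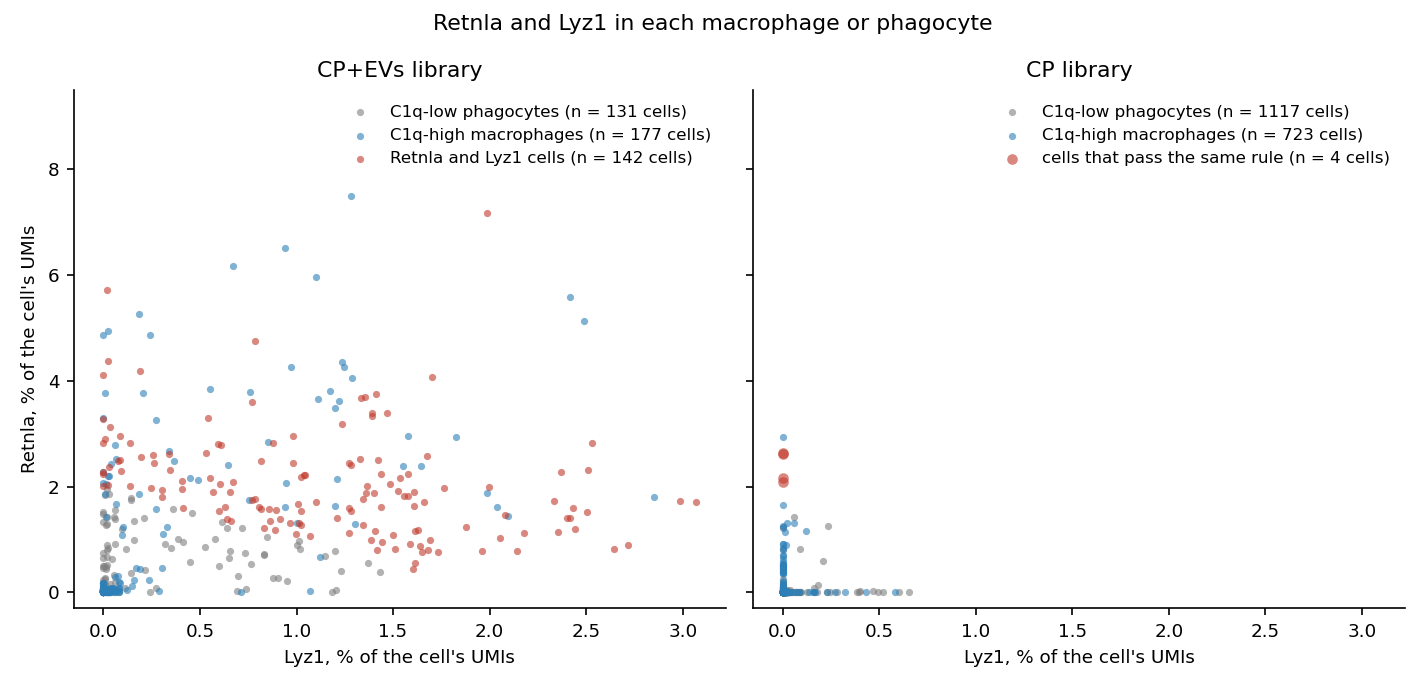
Each point is 1 cell, with Lyz1 (x axis) against Retnla (y axis), both in percent of the cell's UMIs, for the Retnla and Lyz1 cells, C1q-high macrophages and C1q-low phagocytes of CP+EVs (left) and CP (right). The sum of both genes lies between 2.005% and 9.15% in the 142 CP+EVs cells, and the 4 CP cells that pass the same rule lie on the axis at 0% Lyz1.

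The promoters of the defining pair are shown because these genes chose the cells and were high in the same library. The 250 bases before the RefSeq start of each gene (GRCm38.p6) were read for Retnla (chr16:48842359-48842608, plus strand) and Lyz1 (chr10:117292869-117293118, minus strand). Lyz2 (chr10:117282273-117282522, minus strand) is shown beside Lyz1 as its closest relative. Capitals mark matches, on either strand, to the STAT motif TTCNNNNGAA or the C/EBP motif TTNNGCAA.
Retnla: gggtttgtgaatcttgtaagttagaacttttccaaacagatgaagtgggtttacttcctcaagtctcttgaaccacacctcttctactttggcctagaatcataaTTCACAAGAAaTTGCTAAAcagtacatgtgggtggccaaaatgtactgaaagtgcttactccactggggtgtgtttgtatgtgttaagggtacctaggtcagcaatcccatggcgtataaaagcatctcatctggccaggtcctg
Lyz1: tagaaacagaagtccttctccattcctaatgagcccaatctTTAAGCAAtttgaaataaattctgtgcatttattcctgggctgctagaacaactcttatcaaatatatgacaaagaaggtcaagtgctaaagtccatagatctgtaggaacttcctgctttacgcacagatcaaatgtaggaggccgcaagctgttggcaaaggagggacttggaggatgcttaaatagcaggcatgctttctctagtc
Lyz2: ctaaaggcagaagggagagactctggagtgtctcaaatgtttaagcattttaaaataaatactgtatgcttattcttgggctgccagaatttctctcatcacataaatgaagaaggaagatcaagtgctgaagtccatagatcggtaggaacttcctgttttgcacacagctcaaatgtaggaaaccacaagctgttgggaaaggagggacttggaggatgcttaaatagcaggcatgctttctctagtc

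The Retnla window held 1 STAT match, 145 bases before the start, and beside it, without overlap, 1 C/EBP match on the opposite strand 134 bases before the start. A STAT match was present in 5.85% of all 32851 promoter windows of that length and a C/EBP match in 9.56%. The Lyz1 window held 1 C/EBP match, 209 bases before the start, and the Ear2 window 1, 90 bases before its start; those of Lyz2, Fcrls, Ccl6 and H2-Eb1 held neither motif. The PU.1 core GAGGAA, present in 23.3% of windows, occurred in the windows of Retnla and Fcrls, and TATAAA, present in 12.4%, in the same pair. A match describes the letters only. Retnla lies on chromosome 16 (48842551 to 48844461, plus strand). Lyz1 (chromosome 10, 117287797 to 117292868) and Lyz2 (117277331 to 117282321) lie 5476 bases apart on the minus strand by GENCODE, which starts Retnla and Lyz2 within the windows printed above, and the upstream windows of the lysozyme pair were identical at 200 of 252 aligned positions (79.4%). Of the 50-base windows of the Lyz1 transcript, 16.1% occur also in Lyz2, so part of the reads of this pair could have been assigned to either. For Ear2 against Ear1, Ear6 and Ear10 the share was 37.6%, and for Retnla against the other resistin-like genes 0%.

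Retnla took between 0.441% and 7.17% of a cell's UMIs, with a median of 1.90% and quartiles of 1.36% and 2.49%. Summed over the 142 cells it reached 20281 counts-per-million (CPM, of the summed UMIs of the cells; interval 20039 to 20526). Lyz1 took 0% to 3.07% per cell with a median of 1.22%, was at 0 in 6 cells, and summed to 11222 CPM (11041 to 11404). Fcrls, an Fc receptor-like scavenger receptor of myeloid cells, had a median of 0.168% and was at 0 in 4 cells. Ear2, an eosinophil-associated ribonuclease, had a median of 0.042% and was at 0 in 32 cells. Ccl6, a CC chemokine of myeloid cells, ranged from 0% to 1.52% with a median of 0.527%. H2-Eb1, the beta chain of the MHC class II molecule I-E, ranged from 0.294% to 1.89% with a median of 1.18%. Retnla, H2-Eb1 and Lyz2 were thus found in every one of the 142 cells, while Ear2 was missing from part of them.

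To set cells of different depth on one footing, each was thinned to 1000 UMIs. T cells of the same library (507 cells, median 3905 UMIs) served as cells that should lack these genes. Barcodes holding both a T cell and a phagocyte could remain among them. Retnla and Lyz1 together took up to 3.89% of a T cell's UMIs, with a median of 0.0334%. The shares and sums of the T cells are thus not a clean measure of stray RNA. After thinning, Fcrls was found in 81.7% of the Retnla and Lyz1 cells (97.2% unthinned) and in 4.73% of T cells (12.03% unthinned). Ear2 was found in 39.4% (77.5%) against 1.78% (6.11%) of T cells, and Lyz1 in 90.8% (95.8%) against 13.6% (35.3%). Retnla was found in 100% and in 27.4% (63.9%), so that stray Retnla UMIs were common in this library. Cd226, an adhesion receptor that T cells also make, was found in 43.7% (85.9%) against 22.7% (53.6%). Itgax, the integrin CD11c, was found in 19.7% (68.3%) against 5.72% (18.9%) of T cells and 3.95% (12.99%) of C1q-high macrophages. In each of these genes the share lay above that of the T cells, and the gap was narrow for Cd226. By summed level, Retnla ran from 20281 CPM in these cells over 14085 in C1q-high macrophages, 5568 in C1q-low phagocytes, 1570 in T cells and 1384 in dendritic cells to 243 in fibroblasts. Lyz1 ran from 11222 over 4005, 2611, 955 and 395 to 95.3 CPM in the same order. These sums rest on part of the cells: the median Retnla share per cell was 0.0597% in C1q-high macrophages, of which 54 of 177 held at least 2% Retnla and Lyz1, 0.276% in C1q-low phagocytes and 0.0243% in T cells, so that by medians the C1q-low phagocytes were above the C1q-high macrophages. In CP, Retnla stood at 16.9 CPM in T cells and Lyz1 at 1.73.

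The 142 cells hold 3.41% of the UMIs of CP+EVs but 36.2% of its Retnla UMIs (26633 of 73523), 44.6% of its Lyz1, 34.2% of its Fcrls, 32.04% of its Ear2, 29.8% of its Ccl6, 26.8% of its Lyz2 and 15.5% of its H2-Eb1. The C1q-high macrophages, with 2.74% of UMIs, hold another 20.2% of Retnla and 12.8% of Lyz1. Over the whole library Retnla stood at 1908 CPM in CP+EVs and 132.5 in CP, and Lyz1 at 857.9 and 22.8. Fcrls stood at 180.3 and 39.1, and Ear2 at 56.2 and 13.7. Ccl6 and Lyz2, by contrast, were lower in CP+EVs, at 650 against 1247 and 2734 against 6748 CPM. In CP, 50.9% of the Retnla UMIs lie in C1q-high macrophages.

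**Figure D2:**
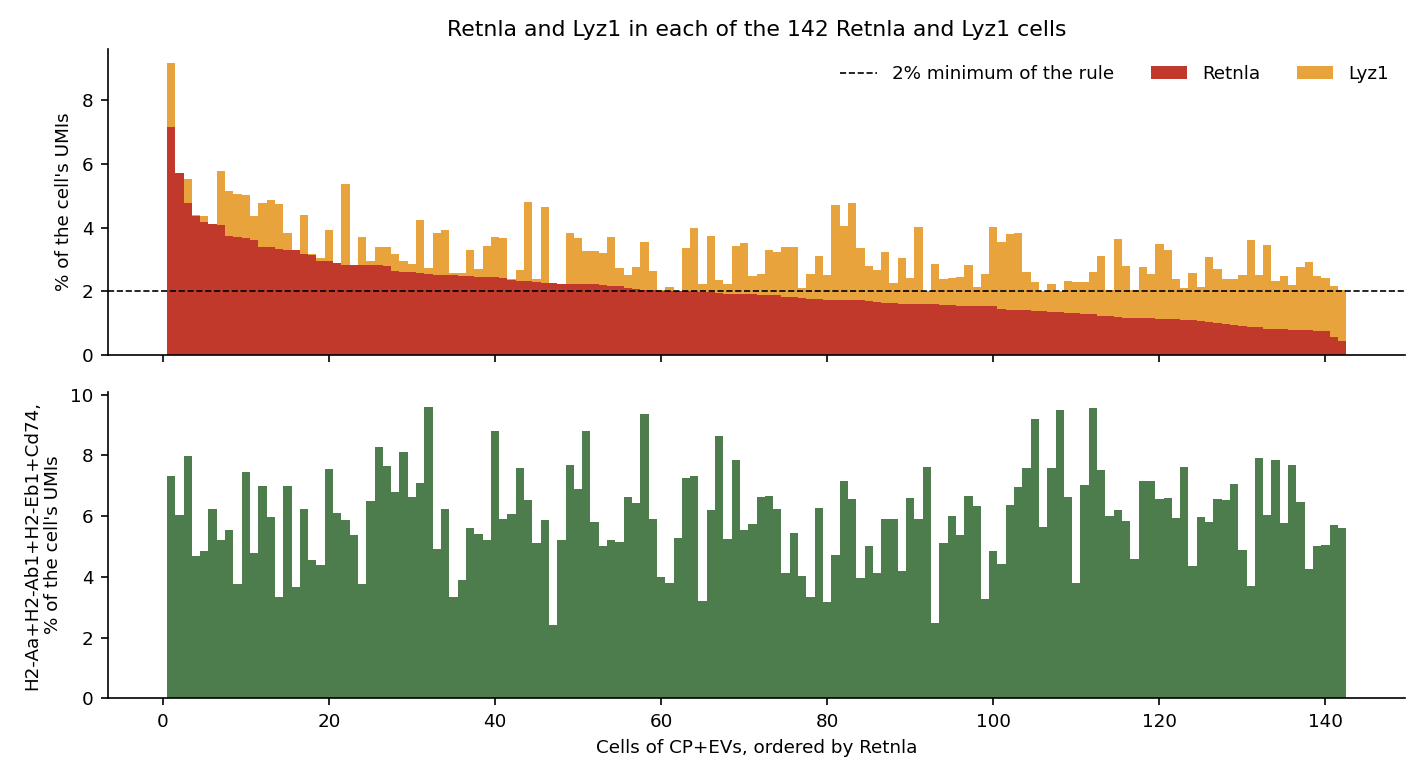
Each bar is 1 of the 142 cells, ordered by Retnla: the upper panel stacks Retnla and Lyz1 and the lower panel shows H2-Aa, H2-Ab1, H2-Eb1 and Cd74 together, in percent of the cell's UMIs. Retnla falls from 7.17% to 0.441% along the order, while the class II share has a median of 5.97% and a correlation with Retnla of -0.02.

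Besides the genes of the rule, the genes with the most UMIs in the cells were those of antigen presentation and of the cytoskeleton. Cd74, the invariant chain of MHC class II, reached 19930 CPM, H2-Ab1 14685, H2-Aa 12621 and H2-Eb1 11577. Actb, Tmsb4x, Cfl1 and Vim of the cytoskeleton stood at 18683, 16671, 4783 and 3546 CPM. Then came Ccl6 at 5686, Fn1, the matrix protein fibronectin, at 5197, the class I gene H2-D1 at 4726, Eef1a1 at 4638, Malat1 at 4124 and Lpl, lipoprotein lipase, at 3812 CPM. The immunoglobulin gene Igkc, at 3287 CPM, was no higher than in T cells (3528 CPM).

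Checked against marker lists, the label of macrophage held in part. Present were Lyz2 (21463 CPM), Ccr2, the receptor that draws monocytes out of the blood (1840), Itgam, the integrin CD11b (1042), Cd68 (624) and Csf1r, the receptor for macrophage colony-stimulating factor (529), of which Lyz2, Ccr2 and Csf1r are in the rule. Fcgr1 (CD64) had 1 UMI in all 142 cells, Cx3cr1 2 and Mertk 15, that is 0.762, 1.52 and 11.4 CPM; these are standard defining genes of mature tissue macrophages. Adgre1 (F4/80) stood at 164 CPM against 421 in the C1q-high macrophages and 16.2 in T cells. Flt3, which defines dendritic cells, stood at 7 CPM, and 3.52% of the cells held a UMI of it. Of the large peritoneal macrophage genes, Gata6, Timd4 and Icam2 were at or under 5 CPM. Fn1 and F10 of the same list, however, stood at 5197 and 452 CPM. Against C1q-high macrophages, 4 of the 14 listed were measured, 2 at least 2-fold higher and 2 lower. Of the small peritoneal macrophage genes, Cd226 stood at 634, Irf4 at 117, Itgax at 260 and Fcrls, a rule gene, at 1808 CPM. Irf4 was found in 5.63% of these cells and 4.54% of T cells after thinning. Cd209a of the small peritoneal list stood at 36.6 CPM. Against C1q-high macrophages, 5 of its 12 measured genes were at least 2-fold higher and 1, Clec10a, lower. The cells are accordingly called Retnla and Lyz1 cells below.

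Genes of other cell types were low, apart from acinar RNA. Summed over their lists, neutrophil genes reached 24 CPM, eosinophil genes 10, mast cell genes 3 with 5 of 8 at 0, and erythroid genes 0 with 8 of 8 at 0. The T and natural killer cell list summed to 123 CPM against 6190 in T cells, the fibroblast list to 1445 against 48891 in fibroblasts, and the B cell and plasma cell list to 768 against 806 in T cells. Acinar genes summed to 21949 CPM, beside 14062 in C1q-low phagocytes and 32432 in C1q-high macrophages of the same library. The C1q-low phagocytes were held to at most 5% acinar and Reg UMIs, so their value was partly fixed. The other 2 populations had no such limit. The part of acinar RNA in the results below was not tested.

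The first comparison was with the C1q-high macrophages of the same library, which pass the same phagocyte, B, T and collagen limits but hold at least 0.3% C1q (177 cells, median 4762 UMIs). In the summed UMIs of this comparison the Retnla and Lyz1 cells had more Mmp19, Itgax, H2-DMb2 and Irf4, and less of 14 of 15 measured tissue-resident macrophage genes. Of 6122 genes with at least 20 CPM in 1 population and 20 UMIs in all, 238 were higher by 2-fold or more (3.89%) and 551 lower by as much (9.0%), and the median of all genes was -0.07 on the log2 scale. Because C1q and Retnla with Lyz1 chose the groups, genes that go with them were bound to differ to an unknown extent, and nothing is read from these percentages. Without the 33 cells that carried acinar, B, T or Nkg7 UMIs past the stated limits, 265 genes were higher and 616 lower.

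Of the genes higher in the Retnla and Lyz1 cells, Mmp19, a matrix metalloproteinase, stood at 137 against 13.3 CPM, a ratio of 10.002 (5.999 to 19.3). Dcstamp, a membrane protein needed for macrophage fusion, was 7.79-fold (4.63 to 15.1) and Upb1, an enzyme of pyrimidine breakdown, 7.40-fold (4.39 to 14.3) higher. Itgax stood at 260 against 43 CPM (6.05-fold, 4.47 to 8.53). Net1 was 5.13-fold (3.46 to 8.13) higher, H2-DMb2, a subunit of the H2-DM complex that loads peptides onto class II, 4.34-fold (3.60 to 5.30), and Irf4, a transcription factor of interleukin-4 responses, 4.21-fold (2.86 to 6.58). Thinned to equal depth, 5.63% of the Retnla and Lyz1 cells held Irf4 (2.46% to 10.8%) and 2.82% of C1q-high macrophages (0.923% to 6.47%). The share was 4.54% in T cells and 7.63% in C1q-low phagocytes. Adam8 (3.88-fold, 3.21 to 4.76), Il1rl1, the interleukin-33 receptor (3.76-fold, 2.80 to 5.21), Hr (3.54-fold, 2.80 to 4.57), Fgfr1 (3.49-fold, 2.91 to 4.23) and Prr5l (3.48-fold, 2.54 to 4.92) completed the 12 genes with the highest ratios. Fn1 (5197 against 1513 CPM, 3.44-fold, 3.25 to 3.63), Lpl (3812 against 1514, 2.52-fold, 2.38 to 2.67) and Aldh1a2, which makes retinoic acid (379 against 126, 3.0003-fold, 2.48 to 3.67), were higher as well.

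Of the genes lower in the Retnla and Lyz1 cells, Ms4a7 had 1 UMI against 399, a ratio of levels of 497 with a counting interval from 88.6 to 19662. Cbr2 had 2 against 331 UMIs (206-fold lower, 56.6 to 1708), and Cx3cr1, the fractalkine receptor, 2 against 173 (108-fold, 29.4 to 896). Pf4 had 1 against 132 UMIs and Stab1, a scavenger receptor, 2 against 158. Cd93 was 70.6-fold lower (27.2 to 261). Apoe, the lipid carrier of tissue macrophages, stood at 65.5 against 3767 CPM (57.5-fold lower, 46.5 to 72.1), C3ar1, a complement receptor, was 46.0-fold lower (26.7 to 87.1), and Aif1 (IBA1) 23.6-fold lower (14.9 to 39.6). Ms4a6d, Ms4a6b and Adap2 were 50.7, 35.0 and 21.7-fold lower. After thinning, Apoe was found in 6.34% of the Retnla and Lyz1 cells, 6.31% of T cells and 65.5% of C1q-high macrophages. Its share in the Retnla and Lyz1 cells was thus close to that of the T cells, among which mixed barcodes could remain.

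**Figure D3:**
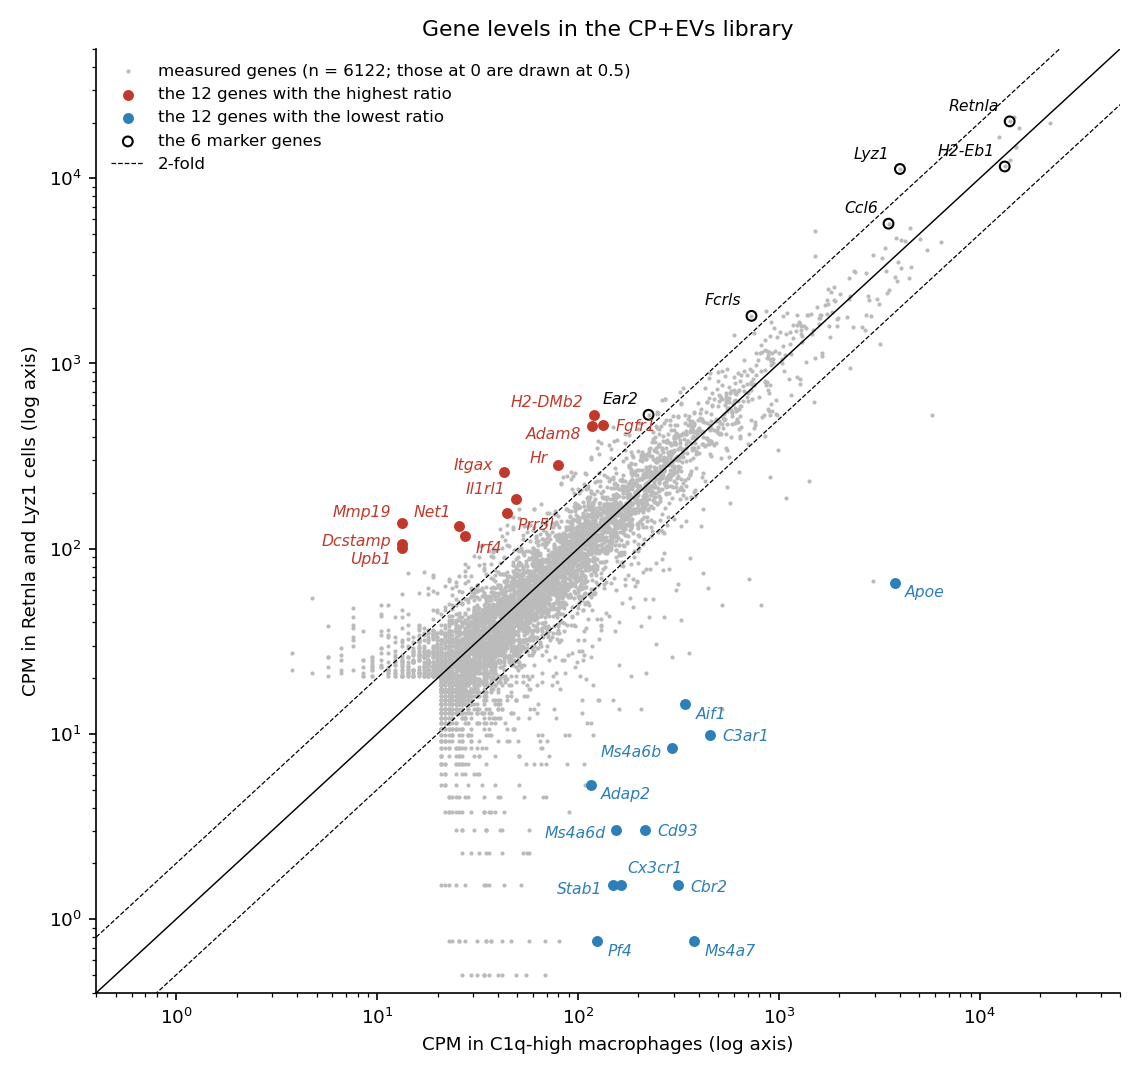
Each point is 1 of 6122 genes, with its CPM in the C1q-high macrophages against its CPM in the Retnla and Lyz1 cells of CP+EVs (log axes); the solid line marks equal levels and the dashed lines 2-fold. Above the upper line lie 238 genes, with Mmp19 and Itgax among the named ones, and below the lower line 551, with Ms4a7 and Apoe.

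Since 54 of the 177 C1q-high macrophages also held at least 2% Retnla and Lyz1, the comparison was repeated with these alone. Then 198 genes were higher and 287 lower, and the differences of the marker set shrank. On the log2 scale Retnla went from 0.53 to -0.67, Lyz1 to 0.31, Fcrls to 0.36, Ear2 to 0.04 and Ccl6 to -0.03. Itgax stayed apart at 2.84 and Mmp19 at 2.62, as did Dcstamp at 1.99, Upb1 at 1.68, Irf4 at 1.36, Net1 at 1.34, H2-DMb2 at 1.18 and Prr5l at 1.18. Hr and Fgfr1 fell below 2-fold, at 0.76 and 0.84. Apoe was at -3.53, C3ar1 at -4.56, Cbr2 at -5.28 and Aif1 at -3.67. Itgax thus stood at 260 CPM in the Retnla and Lyz1 cells, 43 in all C1q-high macrophages and 35 in those rich in Retnla and Lyz1, and C1qb at 525, 5769 and 5178 CPM.

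By function, 14 of the 15 measured tissue-resident macrophage genes (17 listed, the C1q genes of the rule among them) were at least 2-fold lower than in C1q-high macrophages and none higher, with a median log2 ratio of -4.50. Pan-macrophage genes were lower in 7 of 13, with a median of -1.31 and none higher. Pattern recognition receptors were lower in 11 of 17 (median -1.55), and scavenger and efferocytosis genes in 9 of 16 (-1.37). Complement genes were lower in 7 of 13 with 1 higher (-2.01). C1qa, C1qb and C1qc, which chose the groups, are in the complement list, so its counts and medians were partly fixed. Small peritoneal macrophage genes, which include Retnla, Fcrls and Ear2, were higher in 5 of 12 and lower in 1, with a median of 0.76. Against the C1q-high macrophages rich in Retnla and Lyz1, the tissue-resident median was -3.53, the complement median -1.62 and the small peritoneal median 0.01.

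The antigen-presentation genes were close to their levels in C1q-high macrophages. Of 9 measured MHC class II genes 1, H2-DMb2, was higher and none lower, with a median of -0.17. H2-Eb1 stood at 11577 against 13310 CPM, a ratio of 0.870 (0.850 to 0.890). Of 15 MHC class I genes none reached 2-fold in either direction.

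Genes that type I interferon induces were lower: 23 of 36 measured (44 listed) were at least 2-fold lower and none higher, with a median of -1.41, beside a median of -0.07 over all genes. Ifi207 stood at 61.7 against 444.5 CPM (7.21-fold lower, 5.68 to 9.24), Ifi204 at 60.2 against 306 (5.09-fold lower) and Slfn5 at 64.7 against 314 (4.85-fold lower). Oasl2, an oligoadenylate synthetase-like protein, stood at 48.7 against 189 CPM and Ifi27l2a at 365 against 425. Of 11 measured genes of the STING pathway, which senses DNA in the cytosol, 3 were lower and none higher (median -0.57); Cgas, the sensor, stood at 38.1 against 51.2 CPM. Against the 54 C1q-high macrophages rich in Retnla and Lyz1 the interferon median was -0.79 and the STING median -0.32.

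Chemokines were lower in 9 of 17 and higher in none (median -1.76), with Ccl4 at 49 against 524 CPM, Ccl3 at 41 against 325 and Ccl7, a ligand of CCR2, at 42.7 against 225. Cxcl2, which draws neutrophils, was close at 2316 and 2271 CPM, and Ccl6 and Ccl9 were 5686 against 3514 and 2537 against 1765 CPM. Of 19 inflammatory cytokines and NF-kB genes Il1a and Il6 were higher and Tnf, Nlrp3 and Vcam1 lower (median 0.02); Il6 stood at 476 against 202 CPM, Il1rn, the interleukin-1 receptor antagonist, at 614 against 325, Il1b at 1802 against 1052, and Tnf at 77 against 266. Alternative activation genes, which include Retnla, were higher in 3 of 16 (Ear2, Irf4 and Socs2) and lower in 4 (Cd163, Clec10a, Flt1 and Tgm2), with a median of -0.06. Several of that list were near 0: Arg1 had no UMI, which allows up to 3 counts, and Chil3 had 2.

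**Figure D4:**
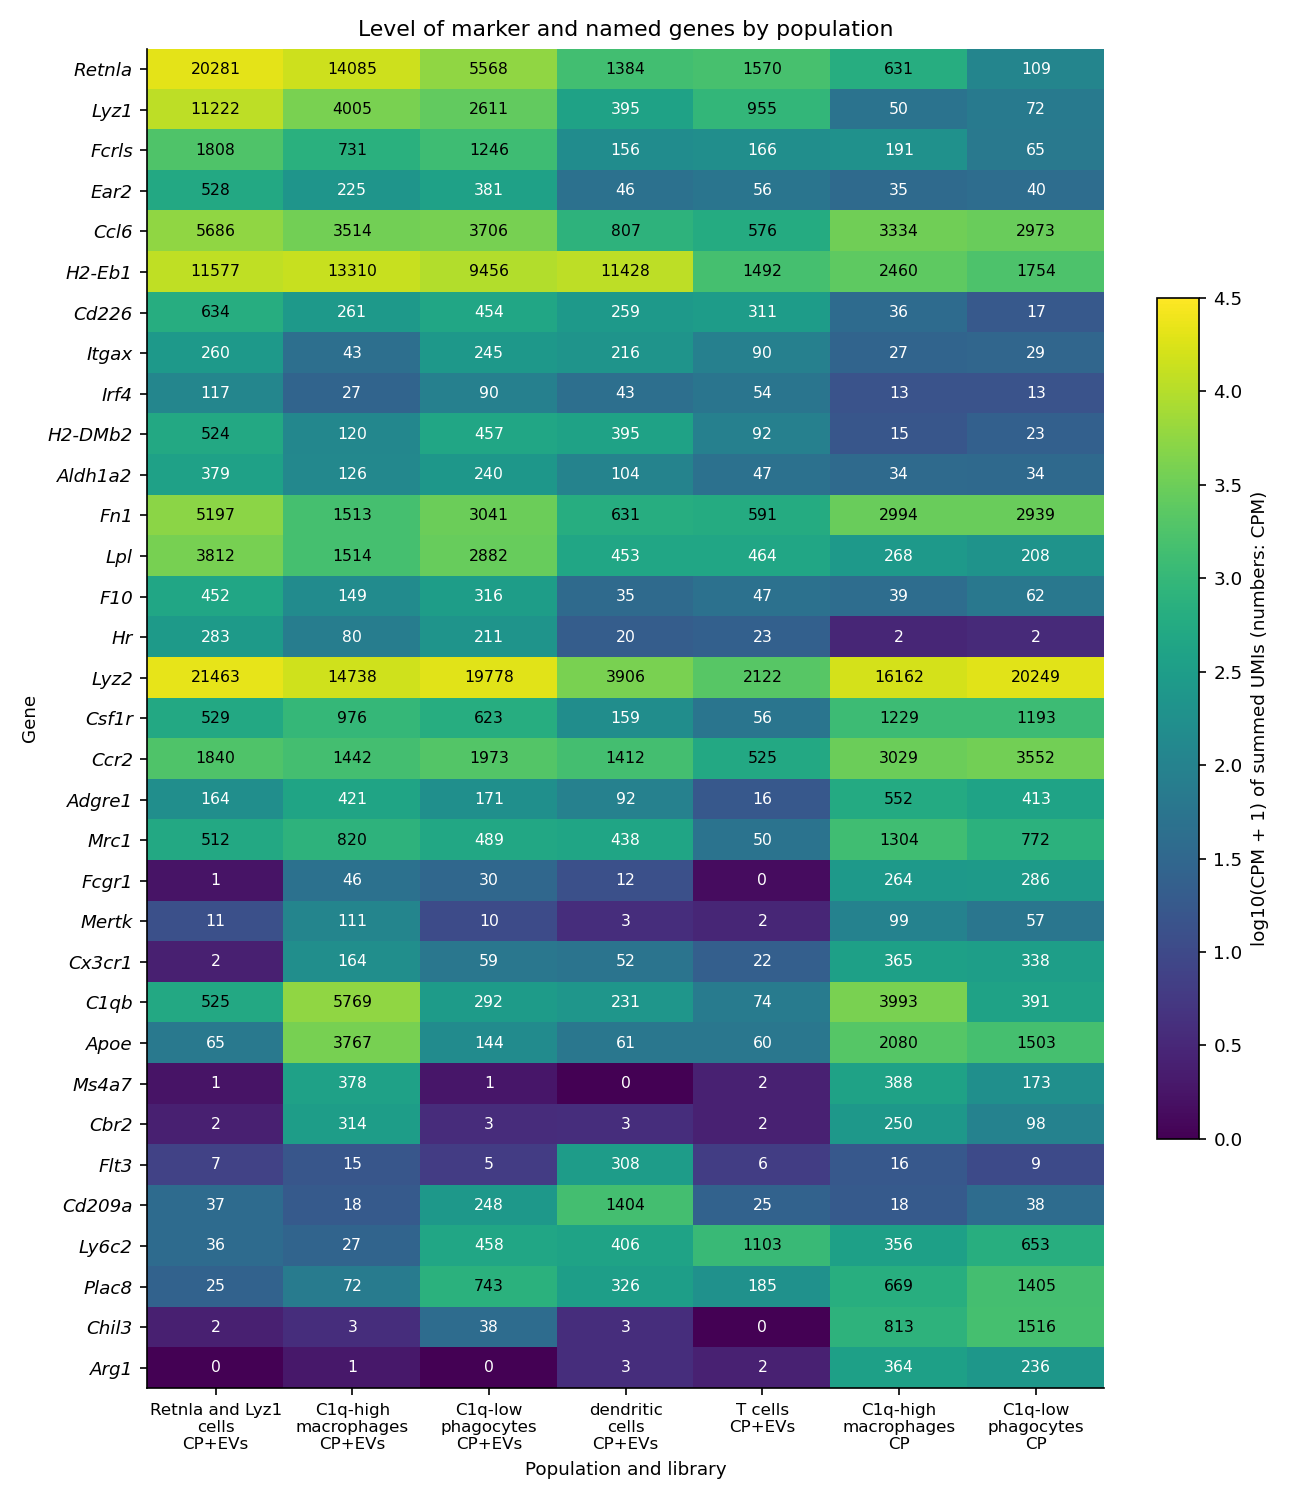
Heat map of summed levels in CPM (numbers in the cells, colour on a log10 scale) of named genes in the Retnla and Lyz1 cells and the comparison populations of both libraries. Retnla runs from 20281 CPM in the Retnla and Lyz1 cells to 109 in the C1q-low phagocytes of CP, and H2-Eb1 is at 9456 CPM or more in the 4 macrophage, phagocyte and dendritic populations of CP+EVs. Class II genes were part of the choice of the dendritic cells.

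The second comparison set the cells against phagocytes of the same library that are low in C1q and under 2% Retnla and Lyz1. Taken with the rule's own phagocyte limit, that population held 2278 cells in which acinar and Reg genes took a median of 43.4% of UMIs, so it consisted largely of acinar cells with stray Lyz2. Against it, 1165 of 6342 genes were higher (18.4%) and 971 lower (15.3%); without the rule, acinar, Reg and mitochondrial genes in the totals the higher genes were 29.8% of those past 2-fold instead of 54.5%, and the median of all genes went from 0.27 to -0.21. A stricter population, set after these values were seen, had at least 1 Csf1r UMI, at least 0.5% Lyz2 and at most 5% acinar and Reg UMIs, without B, T or Nkg7 UMIs above 1 (131 cells, median 6761 UMIs). It is used below.

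Against these 131 C1q-low phagocytes few genes were higher: 45 of 5956 (0.756%), with 320 lower (5.37%) and a median of -0.13 over all genes. With median-of-ratios scaling, which moved that median to -0.01, the counts were 65 and 234. Mmp19 was 3.44-fold (2.49 to 4.95), Gbp2b, a guanylate-binding protein, 2.35-fold (1.77 to 3.19), and Areg, the growth factor amphiregulin, 2.06-fold (1.74 to 2.45) higher, while Ecm1, Ephx1 and Gfra2 stayed under 2-fold at 1.89, 1.82 and 1.73. Cells of this population shared much of the marker profile: Fcrls stood at 1246 CPM against 1808, Ear2 at 381 against 528, Cd226 at 454 against 634, Itgax at 245 against 260, and H2-DMb2 at 457 against 524.

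Among the 320 genes lower than in C1q-low phagocytes were genes of blood monocytes. Of 12 classical monocyte genes 8 were at least 2-fold lower and none higher, with a median of -3.28. Plac8 stood at 25 against 743 CPM (29.6-fold lower, 20.9 to 43.2), Ly6c2, the Ly6C antigen, at 36 against 458, and Ms4a6c was 12.99-fold lower (10.1 to 17.02). Msr1, a scavenger receptor, had 1 UMI against 123 (145-fold, 25.5 to 5769), and Ms4a6b, Ms4a4c and Sirpb1c were 21.1, 20.7 and 20.7-fold lower. These sums rest on part of the C1q-low phagocytes. Plac8 was found in 43.5% of them, Ms4a4c in 32.1% and Msr1 in 22.9%. In the Retnla and Lyz1 cells the shares were 19.7%, 7.04% and 0.704%. Ccr2 and Lyz2 were close, at 1840 against 1973 and 21463 against 19778 CPM. Both are in the phagocyte limit, and the C1q-low phagocytes also had a Lyz2 minimum, so these levels were partly fixed. Interferon-induced genes were again lower, in 20 of 35 with none higher (median -1.26): Rsad2 had 5 UMIs against 46, and Ifit2 3 against 45. None of 9 MHC class II genes reached 2-fold. Cell cycle genes were lower in 9 of 15 (median -1.22). At least 3 UMIs of Mki67 and Top2a, which mark dividing cells, were held by 14 of the Retnla and Lyz1 cells (9.86%, 5.50% to 16.0%) and by 20 of the C1q-low phagocytes (15.3%, 9.58% to 22.6%), and these intervals overlap.

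The values on either side of the limits were as follows. The 41 cells with 2% to 2.5% Retnla and Lyz1 had Fcrls at 1652, Ear2 at 465, Ccl6 at 5829 and H2-Eb1 at 10862 CPM, and the 26 C1q-low phagocytes with 1.5% to 2% had 1643, 610, 4397 and 11226. The 9 cells with 0.2% to 0.3% C1q had Fcrls at 1195, Itgax at 143 and Apoe at 182 CPM, and the 13 C1q-high cells rich in Retnla and Lyz1 with 0.3% to 0.4% had 1412, 60.3 and 72.4. C1q was at 0 UMIs in 44 of the 142 cells. The cells are thus a range cut from a wider one on the Retnla and Lyz1 axis.

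The third comparison set the cells against dendritic cells, the other class II-rich myeloid cells of the library. With Ccr7 in the definition it held 188 cells in which the B cell gene Ms4a1 reached 878 CPM; 788 of 6836 genes were then higher (11.5%) and 1791 lower (26.2%), and the higher genes went from 30.6% to 58.2% of those past 2-fold under median-of-ratios scaling. A stricter set, also made after the data were seen, needed 3 UMIs of Flt3, Zbtb46, Xcr1 and Clec9a and the same exclusions (36 cells, median 8635 UMIs, Ms4a1 at 11.5 CPM). Both sets also needed at least 0.5% of UMIs from H2-Aa, H2-Ab1, H2-Eb1 and Cd74. Against it, 391 of 6345 genes were higher (6.16%) and 1033 lower (16.3%), with a median of -0.27; the higher share of those past 2-fold was 27.5%, and 41.7% under median-of-ratios scaling, which put the median at -0.06.

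Class II was alike in the pair: H2-Eb1 stood at 11577 against 11428 CPM, a ratio of 1.01 (0.978 to 1.05), and 3 of 10 class II genes were lower, with a median of 0.00. Class II genes helped to choose the dendritic cells, so their level there was partly fixed. Ephx1, an epoxide hydrolase, was 17.1-fold (7.99 to 58.3), Hr 13.1-fold (6.75 to 35.2), F10, the coagulation factor X, 12.6-fold (7.43 to 25.5), and Ear2 11.1-fold (7.01 to 20.2) higher. Mmp19 had 180 UMIs against 3, with a counting interval of the ratio from 5.34 to 77.6, and Cd84 was 8.96-fold higher. Lower were Cd209a, a lectin of type 2 dendritic cells (38.4-fold, 28.5 to 52.8), P2ry10 (24.7-fold), Irf8, a transcription factor of dendritic cells (19.7-fold, 14.1 to 28.2), Gpr141 (13.4-fold) and Plac8 (12.96-fold), besides Flt3, which chose the dendritic cells (45.0-fold). Of 14 type 2 and mature dendritic cell genes 10 were lower and none higher (median -3.71). This list holds Flt3 and Zbtb46, which helped to choose the dendritic cells, so the count and median were partly fixed. Itgax was similar at 260 and 216 CPM, and Csf1r stood at 529 against 159.

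The last comparison crossed the libraries, with the 1117 C1q-low phagocytes of CP that meet the stricter limits (median 6165 UMIs). Of 6345 genes 462 were higher in the Retnla and Lyz1 cells (7.28%) and 956 lower (15.1%), with a median of -0.31. Median-of-ratios scaling put that median at 0.03 and turned the split, from 32.6% to 55.2% higher among those past 2-fold. With the first, wider population of CP (2188 cells) 431 of 6553 were higher (6.58%) and 1095 lower (16.7%), or 28.2% higher, and 55.8% after that scaling, which moved the median from -0.33 to 0.09.

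The genes with the highest ratios had few UMIs in the CP phagocytes, whereas Ccl6, at 2973 CPM, and Lyz2, at 20249, were abundant there. Hr stood at 283 against 2.37 CPM (116-fold, 74.6 to 204), Dcstamp had 140 UMIs against 5 (148-fold, 67.7 to 506), and Upb1 was 119-fold (57.3 to 355), Gbp2b 55.8-fold (35.1 to 98.7), Cd2 49.1-fold (32.9 to 78.9) and Ephx1 39.3-fold (29.5 to 54.0) higher. Cd226 stood at 634 against 17 CPM, Fcrls at 1808 against 65, Lpl at 3812 against 208 and Lyz1 at 11222 against 72. In the other direction, Chil3, a chitinase-like protein of monocytes and alternatively activated macrophages, had 2 UMIs against 11507 (995-fold lower, 275 to 8218), and Msr1 1 against 6240 (1079-fold, 194 to 42636). Arg1 had 0 UMIs against 1791, Fpr2, a formyl peptide receptor, 0 against 1289, and Mmp9 0 against 1128. With 3 counts as the floor over the 142 cells, these were at least 103, 74.3 and 65.0-fold lower. Saa3 had 2 UMIs against 5231 (452-fold lower by counts).

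MHC class II genes were higher in 8 of 9 (median 2.23), with H2-Eb1 at 11577 against 1754 CPM (6.60-fold, 6.45 to 6.75). The C1q-high macrophages differed between the libraries in the same gene, at 13310 CPM in CP+EVs and 2460 in CP. Classical monocyte genes were lower in 8 of 12 (median -3.85) and interferon-induced genes in 21 of 35, with none higher (median -1.05); Oasl2 stood at 48.7 against 203 CPM, Slfn5 at 64.7 against 481.5 and Ifitm3 at 1585 against 2731. STING pathway genes were lower in 6 of 11 with none higher (median -1.02), and Tbk1, its kinase, stood at 42.7 against 83.8 CPM. Over all measured genes of this comparison 15.1% were lower, with a median of -0.31. Median-of-ratios scaling put the median of all genes at 0.03. List counts and medians across the libraries were not computed under that scaling. Matrix genes were lower in 9 of 16 and higher in 2 (median -2.42): Thbs1, thrombospondin 1, stood at 230 against 4087 CPM and Tgfbi at 379 against 2364, while Fn1 was at 5197 against 2939. Within CP+EVs, Slfn5 stood at 65, 314, 258 and 300 CPM in the Retnla and Lyz1 cells, C1q-high macrophages, C1q-low phagocytes and dendritic cells.

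**Figure D5:**
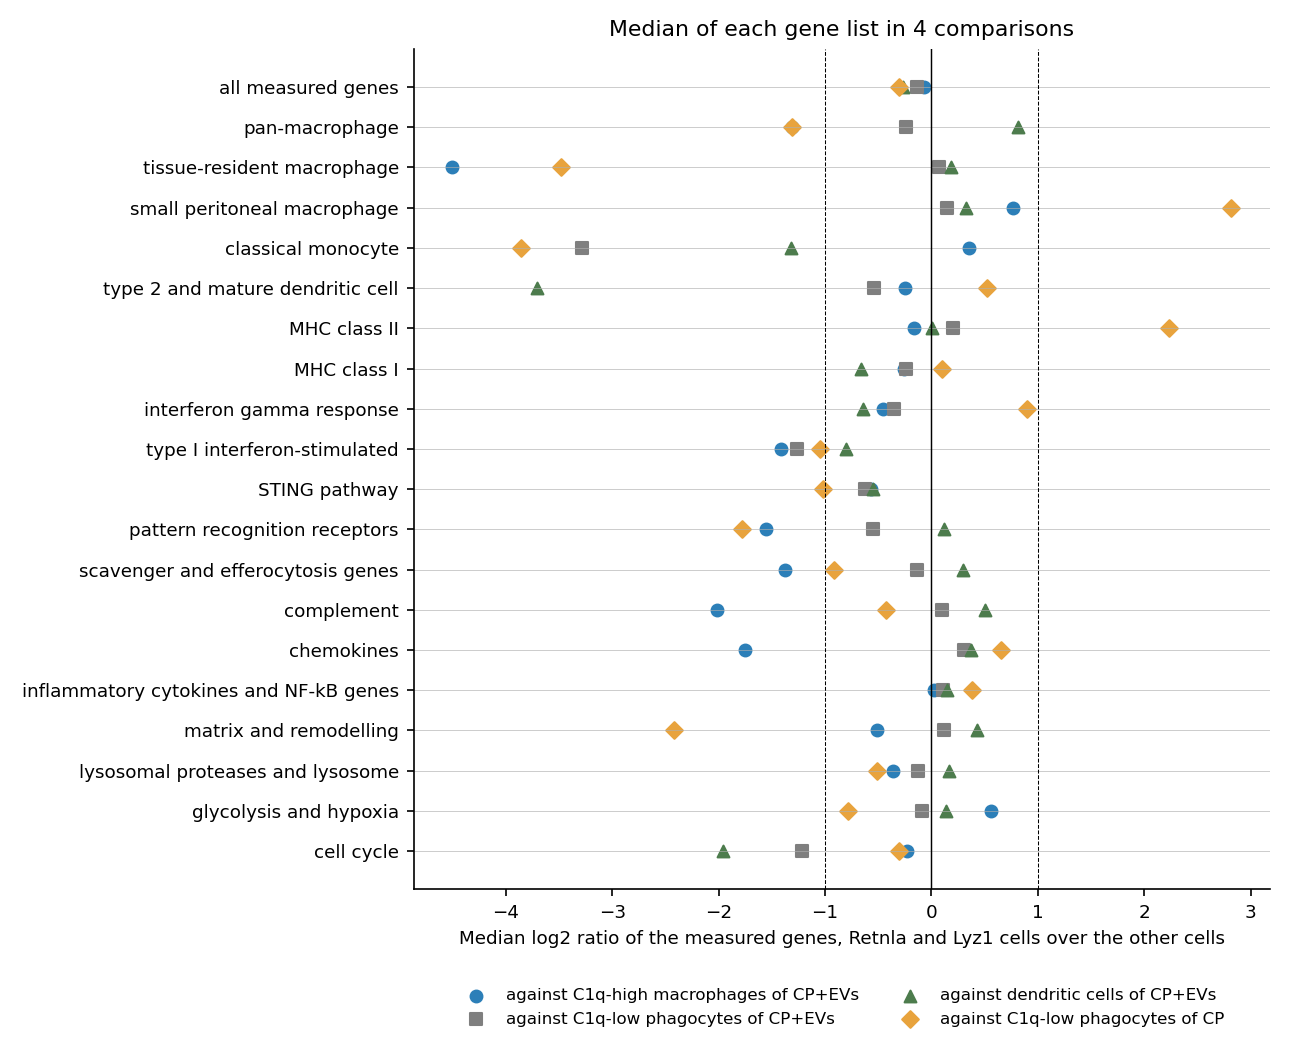
The median log2 ratio of the measured genes of 19 lists, and of all measured genes, is plotted for the Retnla and Lyz1 cells over each of 4 comparison populations. Type I interferon-induced genes have a median below 0 in all 4 (-1.41, -1.26, -0.80 and -1.05), while MHC class II genes lie near 0 in CP+EVs and at 2.23 against the CP phagocytes. The dendritic cells were chosen in part by class II genes.

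A rule without Retnla and Lyz1 gave a view of the same markers that their cut does not fix. With at least 3 UMIs of Fcrls, Ear2 and Cd226 in place of that cut, 246 cells of CP+EVs (3.59%) and 90 of CP (1.07%, median 10469.5 UMIs) qualified. The UMI, mitochondrial, C1q and collagen limits were kept. The phagocyte limit left out Fcrls, and the limits on acinar, Reg, B, T and Nkg7 UMIs were those of the stricter C1q-low phagocytes. The shares thus come from another filter than those of the Retnla and Lyz1 rule. This rule was added after the data were seen. Retnla stood at 11985 CPM in those of CP+EVs and 1280 in those of CP, Lyz1 at 6694 and 169, Lpl at 3343 and 421, H2-Eb1 at 11589 and 4183, Itgax at 270 and 67, and Hr at 257 and 13. Ear2 was nearer, at 477 and 306 CPM, but it is one of the genes that chose these cells, so its level was partly fixed. Chil3 stood at 1 against 804, Msr1 at 1 against 445 and Arg1 at 0 against 253 CPM.

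Among themselves the cells varied most in Malat1, a nuclear long non-coding RNA, and in the pair that chose them. After thinning to 1000 UMIs the index of dispersion, the variance of UMIs over their mean, was 12.6 for Malat1, 5.41 for Lyz1 and 5.19 for Retnla, with a median of 1.11 over 691 genes. Cd74 (3.54), the heat shock gene Hspa1b (3.48), Lyz2 (3.40), Tmsb4x (3.03), Il1b (2.98), Lpl (2.94) and the immediate early gene Fos (2.89) followed. Of these 10 genes, 7 were among the 10 highest when 121 cells were thinned to 2000 UMIs.

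Retnla exceeded Lyz1 in 103 cells, Lyz1 exceeded Retnla in 37, and 2 cells had equal UMIs. The shares of Retnla and Lyz1 had Pearson's r of -0.34 over the 142 cells, which the minimum on their sum helps to fix; r with the summed class II share was -0.02 for Retnla and 0.07 for Lyz1. The 39 cells in which Retnla was not above Lyz1 and the other 103 had like levels of Fcrls (1924 and 1765 CPM), Ear2 (527 and 529) and H2-Eb1 (11762 and 11509). They differed in Ccl2, a chemokine that draws monocytes, at 70.4 against 239, Top2a at 28.2 against 106, Irf1 at 747 against 377 and Tnfaip2 at 310 against 109 CPM.

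Lyz1 was under 0.1% of UMIs in 16 cells, whereas Retnla was under 0.1% in none. These 16 cells and the other 126 had like levels of Fcrls (2064 and 1774 CPM) and Ear2 (531 and 528). Thbs1 stood at 789 in the 16 and 155 CPM in the 126, Ptgs2, cyclooxygenase 2, at 511 and 135, Mmp19 at 362 and 107, and Txnip at 32.3 and 224. The genes of both splits were taken for their size of difference and describe a range within 1 library.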

How the data were processed

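Single cells of mouse pancreas were captured on BD Rhapsody and sequenced on a Illumina Novaseq, per the labels. The matrices the authors deposited hold raw UMI counts per gene and barcode, not normalized. The submitters' processing notes list CASAVA 1.8, UMI-tools, Seurat and the build mm10 but no roles; the sources used here give no rule for counting reads or calling cells. Each deposited barcode held at least 501 UMIs. Groups follow the treatment labels, with 1 library each.

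Cells were chosen by per-cell rules on raw counts. UMIs were summed per population and given as CPM. Ratios of higher genes and log2 ratios have 0.5 counts added, ratios of lower genes are of the counts themselves, and intervals are exact and conditional. A gene was measured at 20 CPM in 1 population and 20 UMIs in all, and a difference was counted from 2-fold. Named are the 12 highest and 12 lowest genes against C1q-high macrophages and 6 and 6 elsewhere (at least 100 CPM, 100 UMIs and a UMI in 10% of cells of the higher population, without rule, acinar, Reg, mitochondrial, ribosomal, haemoglobin, immunoglobulin, Gm and Rik genes), the 15 with most UMIs, the 10 most dispersed, and members of each list described. Rule genes are those that chose the Retnla and Lyz1 cells. Genes that chose only a comparison population, such as Flt3, Cd74 and H2-Eb1 for the dendritic cells, were not left out. Members, lists and rules were chosen with earlier results of these data known. Of each of 43 repeated symbols the entry with most UMIs was taken; 7 listed symbols were not matched. Promoter windows come from RefSeq (GRCm38.p6) and positions from GENCODE for GRCm38. Ratios were tested on simulated counts. Python 3.11.15, numpy 2.4.6, scipy 1.17.1 and pandas 2.3.3 were used.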

Additional observations from a re-analysis of the deposited data

How the results depend on the processing

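Of the named genes and list medians against C1q-high macrophages, none past 2-fold turned its direction under the alternatives run. Counts did: higher genes outnumbered lower ones under median-of-ratios scaling against the C1q-low phagocytes of CP (669 and 543) and the wider sets of dendritic cells and of CP phagocytes, and lower ones outnumbered higher ones against the wider C1q-low set of CP+EVs without acinar-rich cells; further turns are among the values below. Values under 2-fold did too: against C1q-high macrophages rich in Retnla and Lyz1, Retnla went from 0.53 to -0.67 and Ccl6 from 0.70 to -0.03 on the log2 scale. No paired analysis was possible because each group is 1 library. Of 476 values of named and marker genes against C1q-high macrophages, 390 stayed close and 86 moved; of 698 list medians, 567 stayed close and 131 moved.

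The cells were 3.55% of CP+EVs cells with a Retnla and Lyz1 minimum of 1%, 0.350% with 4%, and 1.62% with a C1q maximum of 0.1%. Without cells over 5% acinar and Reg UMIs they were 3.06%. That limit removed 26 of the Retnla and Lyz1 cells and also took such cells out of the total, so this share has a smaller denominator. In CP the share was 0.131% with a minimum of 1% and 0% with 4%. With Fcrls, Ear2 and Cd226 in place of Retnla and Lyz1, and with the added acinar, B, T and Nkg7 limits, it was 3.59% in CP+EVs and 1.07% in CP.

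Counts of genes higher and lower than in C1q-high macrophages were 363 and 901 with a minimum of 4%, 1806 and 3357 without a CPM minimum, 92 and 134 from 100 CPM, 660 and 1162 at 1.5-fold, and 29 and 191 at 4-fold. The higher genes were 122 with a C1q maximum of 0.1% and 380 with the mean of per-cell CPM, and the lower genes 287 against C1q-high macrophages rich in Retnla and Lyz1.

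Against the 131 C1q-low phagocytes of CP+EVs they were 391 and 585 with a minimum of 4%, 147 and 558 with the mean of per-cell CPM, 1848 and 2190 without a CPM minimum, 5 and 48 from 100 CPM, 220 and 886 at 1.5-fold, and 2 and 65 at 4-fold. The higher genes were 165 with a minimum of 1% and 75 without the 5% of cells with most UMIs. Against the wider C1q-low population they were 492 and 1655 without cells over 5% acinar and Reg UMIs, 710 and 1675 with totals without rule, acinar, Reg and mitochondrial genes, 4051 and 4090 without a CPM minimum, 644 and 243 from 100 CPM, 264 and 611 at 4-fold, and 2076 higher at 1.5-fold.

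Against the 36 dendritic cells they were 1147 and 3556 without a CPM minimum, 143 and 300 from 100 CPM, 803 and 2043 at 1.5-fold, and 93 and 238 at 4-fold, with 252 higher at a minimum of 4%. Against the wider set they were 1220 and 875 with median-of-ratios scaling, 2269 and 5138 without a CPM minimum, 411 and 482 from 100 CPM, 1222 and 2887 at 1.5-fold, and 265 and 583 at 4-fold.

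Against the 1117 C1q-low phagocytes of CP they were 2611 and 2368 without a CPM minimum, 202 and 330 from 100 CPM, 766 and 2005 at 1.5-fold, and 202 and 306 at 4-fold. The higher genes were 729 with a minimum of 4%, and the lower genes 543 with median-of-ratios scaling. Against the wider CP population they were 717 and 568 with median-of-ratios scaling, 3586 and 3381 without a CPM minimum, 214 and 299 from 100 CPM, 754 and 2144 at 1.5-fold, and 165 and 408 at 4-fold, with 697 higher at a minimum of 4%. Stricter folds and CPM minimums count fewer genes by construction; for the other settings the cause was not tested. The depth of 142 cells limits genes with few UMIs, and no interval covers variation between animals.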
